A study of Mus musculus with 6 samples.

Results

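The mitochondrial route from propionyl-CoA to succinyl-CoA, together with the handling of its cofactor vitamin B12 (cobalamin), was followed in livers of wild-type and liver-specific Prox1-knockout mice. The 10 genes were chosen by symbol from the deposited read-count table of 29667 genes: Pcca, Pccb, Mcee, Mut, Mmaa, Mmab, Mmachc, Cd320, Tcn2 and Lmbrd1. All 10 were found, and all 10 passed the filter on low counts. Mut is the name these files use for methylmalonyl-CoA mutase. RNA had been sequenced from livers of 3 wild-type mice (WT, Prox1f/f) and 3 Prox1-cKO mice (Alb-Cre; Prox1f/f), so that both groups carried floxed Prox1 and differed in the Cre recombinase, which the albumin promoter drives in hepatocytes. The strains were kept on a C57BL/6 background and fed chow. The sources used here do not give age, sex or hour of sampling of the mice, nor whether any had been given a carcinogen. Each library counted as 1 sample, so every p-value reflects how these 6 livers vary.

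Propionyl-CoA arises when valine, isoleucine, methionine, threonine, odd-chain fatty acids and the side chain of cholesterol are broken down. Propionyl-CoA carboxylase, a biotin enzyme made of the subunits encoded by Pcca and Pccb, turns it into methylmalonyl-CoA, the epimerase Mcee changes the stereoisomer, and the mutase Mut makes succinyl-CoA, which enters the tricarboxylic acid cycle. The mutase needs adenosylcobalamin. Cobalamin travels in plasma on transcobalamin (Tcn2), enters cells through the receptor Cd320, leaves the lysosome through Lmbrd1 and Abcd4, is stripped of its upper ligand by Mmachc and directed by Mmadhc. In mitochondria Mmab adds the adenosyl group and Mmaa, a GTPase, loads and protects the mutase. In humans, loss of these enzymes causes propionic or methylmalonic acidaemia, and the liver is a main site of the pathway.

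The promoters shown here belong to Mmab, which fell in Prox1-cKO livers together with its neighbour, and to Mmachc, which rose while its neighbour did not pass the test. RefSeq windows of 300 bases, from 250 before to 50 after a transcription start (build GRCm38.p6), were found for 8 of the 10 genes, with 12 windows in all, and for the other two, Mut and Tcn2, the sequence is not shown. The Mmab window lies at chr5:114443978-114444277 on the minus strand and is printed 5′ to 3′ with every CCAAT box, read on either strand (CCAAT or ATTGG), in capitals.
Mmab: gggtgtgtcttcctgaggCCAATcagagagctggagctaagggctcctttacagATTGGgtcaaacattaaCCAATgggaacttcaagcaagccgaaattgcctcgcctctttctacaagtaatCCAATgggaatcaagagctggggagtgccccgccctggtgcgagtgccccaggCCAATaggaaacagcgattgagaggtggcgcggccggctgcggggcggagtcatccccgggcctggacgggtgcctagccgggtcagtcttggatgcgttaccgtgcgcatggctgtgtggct
The Mmachc window lies at chr4:116708336-116708635 on the minus strand, with the letters TTCCCAGCA in capitals, part of the sequence that ZNF143, a factor known in humans to drive MMACHC, recognises.
Mmachc: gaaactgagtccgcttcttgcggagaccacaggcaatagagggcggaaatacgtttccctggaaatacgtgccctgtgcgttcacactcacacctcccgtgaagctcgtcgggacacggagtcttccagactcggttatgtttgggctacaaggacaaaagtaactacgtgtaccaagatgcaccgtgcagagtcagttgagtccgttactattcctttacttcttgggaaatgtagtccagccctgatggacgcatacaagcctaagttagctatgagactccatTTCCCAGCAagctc
The Mmab window held 5 CCAAT boxes. At least 1 CCAAT box was found in 37.4% of the 32851 RefSeq windows of this length in the mouse, and 4 or more in 1.06% of them. The gene on the other side, Mvk (mevalonate kinase, an enzyme of cholesterol synthesis), starts 209 bp away on the opposite strand, and 259 bases and all 5 CCAAT boxes are common to the windows of both genes. The letters TCACNCCA, the core of a sterol regulatory element, were found on neither strand of any of the 12 windows of these genes or of the Mvk window, and in 4.36% of all windows. TTCCCAGCA was found on either strand in 1.15% of all windows. Of the other letters searched, GGGCGG occurred 2 times in the Mmab window and 1 time in the Mmachc window (35.7% of all windows hold it), and TGACGTCA, CACGTG and AGGTCA in neither (1.79%, 7.15% and 16.3% of all windows). These matches describe the letters and do not show that a factor binds there.

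Prox1 mRNA, the check of the labels, was 558 to 837 CPM in WT and 172 to 212 in Prox1-cKO. The Prox1-cKO mean was 26.5% of the WT mean, so the RNA was lowered and not absent. CPM here are the reads of a gene relative to the library's total, scaled between libraries by TMM (trimmed mean of M values). The libraries held 18066205 to 20537091 reads in genes. In all, 34.3% of the 14843 genes tested were called at an adjusted p under 0.05 with edgeR's quasi-likelihood test, 14.1% higher and 20.2% lower in Prox1-cKO. Markers of cell types also moved with genotype. Of 19 hepatocyte markers 11 rose and 1 fell, and their summed level went from 93161 to 101408 CPM in WT to 144003 to 176031 in Prox1-cKO. Of 24 markers of dividing cells 22 fell, of 16 macrophage markers 14, of 15 stellate cell and fibroblast markers 8, of 12 bile duct markers 8, of 14 lymphocyte and neutrophil markers 5 and of 20 endothelial markers 3, and none of these rose. With a library left out, the counts reached 6 higher for hepatocytes (WT replicate 2), 5 lower for macrophages (Prox1-cKO replicate 3), 5 for bile duct (Prox1-cKO replicate 1), 2 to 10 for lymphocytes and neutrophils (10 without WT replicate 3) and 1 for endothelium (any but Prox1-cKO replicate 3). Of all genes, 7.79% to 17.0% were then called higher and 13.0% to 22.6% lower. Every marker listed had at least 1 read. In such bulk RNA, fewer cells of a type and less RNA per cell cannot be told apart, and the part of these shifts in the changes described here was not tested.

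In Prox1-cKO livers 4 of the 10 genes rose (Mut, Lmbrd1, Mmachc and Mmaa), 2 fell (Tcn2 and Mmab) and 4 did not pass the test (Pcca, Pccb, Mcee and Cd320), against 14.1% higher and 20.2% lower over all genes tested. The log2 fold changes of the 10 ran from −0.53 to 0.65, with a median of 0.42, where all genes tested had a median of −0.02. The 19 hepatocyte markers had a median of 0.74, and the other lists of cell markers had medians of −2.69 to −0.22. In 8 of the 10 the 3 WT and 3 Prox1-cKO libraries did not overlap in TMM-normalized CPM, which held for 49.9% of all genes tested. On library totals this was so for 3 of the 10, Mmab, Tcn2 and Lmbrd1 (57.7% of all genes), so the separations of Mut, Mmaa, Mmachc, Mcee and Cd320 hold on the TMM scale and not on library totals. None of the 10 changed by 2-fold. The calls rested on the scaling between libraries. With library totals alone, which shifted the log2 fold changes of all genes by a median of −0.41, none of the 10 was called higher (4.88% of all genes were) and the same 2 genes, Tcn2 and Mmab, were called lower (40.8% of all genes were). With library offsets by GC content and gene length, which shifted them by a median of 0.20, 7 were called higher and 0 lower (27.7% and 16.0% of all genes were). The count called higher fell to 1 when WT replicate 1 or Prox1-cKO replicate 2 was left out (8.35% and 7.79% of all genes were then called higher) and to 2 when WT replicate 2 or Prox1-cKO replicate 1 was (8.64% and 9.45%). It was 6 without WT replicate 3 (17.0%) and 4 without Prox1-cKO replicate 3 (10.3%). The count called lower was 1 when Prox1-cKO replicate 1 was left out (14.2% of all genes), 2 when WT replicate 3 was (22.6%), and 0 when WT replicate 1 or 2 or Prox1-cKO replicate 2 or 3 was (13.0% to 15.1%).

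**Figure D1:**
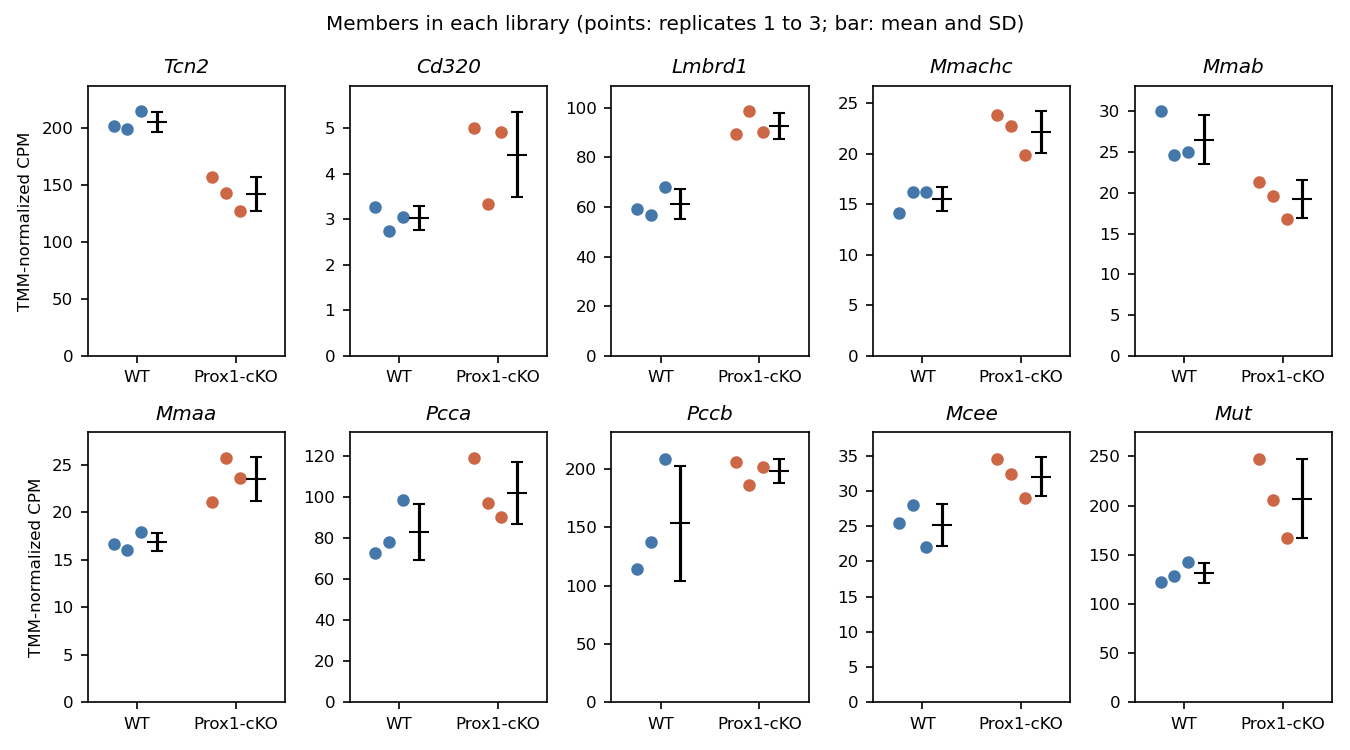
TMM-normalized CPM (vertical axes, from 0) of the 10 genes in each library, with WT in blue and Prox1-cKO in orange, 1 point per replicate and the mean with its SD in black (n = 3). Tcn2 and Mmab sit lower in every Prox1-cKO library, Lmbrd1, Mmachc, Mmaa and Mut sit higher, and only Pcca and Pccb overlap between the genotypes.

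Methylmalonyl-CoA mutase rose in Prox1-cKO livers relative to the TMM scale. Mut stood at 122, 129 and 142.9 CPM in WT, and the values in Prox1-cKO were 248, 206 and 167 CPM. Every Prox1-cKO library lay above every WT library, and the spread within Prox1-cKO (SD 40.1) was wider than in WT (SD 10.4). The log2 fold change was 0.65 (standard error 0.17, adjusted p = 0.0217 from edgeR). Without WT replicate 3 or Prox1-cKO replicate 3 it still passed. The call was lost when any other library was left out, with adjusted p = 0.0649 to 0.0719, and with library totals alone (log2 fold change 0.24, adjusted p = 0.234). The gene (ENSMUSG00000023921) lies on chromosome 17 from 40934685 to 40961988 and its exons share 95 bp with Cenpq on the opposite strand.

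The carboxylase and the epimerase did not pass. Pcca, the biotin-carrying subunit, was 73.0, 77.9 and 98.6 CPM in WT and 119, 96.9 and 90.1 CPM in Prox1-cKO. The ranges overlapped, and the log2 fold change was 0.30 (standard error 0.17, adjusted p = 0.203 from edgeR). Its exons share 241 bp with Ggact on the opposite strand, and how the counting treated strand is not given in these sources.
Pccb, the other subunit, was 114, 138 and 209 CPM in WT and 206, 187 and 202 CPM in Prox1-cKO. WT replicate 3 stood at the level of the Prox1-cKO livers, apart from the other two WT livers. With it, the log2 fold change was 0.37 (standard error 0.22, adjusted p = 0.233 from edgeR), and without it 0.67 (adjusted p = 9.33e-03). Pcca moved likewise, with 0.46 and adjusted p = 0.0490 without WT replicate 3.
Mcee was 25.4, 27.99 and 22.1 CPM in WT and 34.6, 32.4 and 29.0 CPM in Prox1-cKO. The genotypes did not overlap, but the difference of 0.35 on the log2 scale (standard error 0.13) missed the threshold (adjusted p = 0.0771 from edgeR). With library totals alone, the log2 fold changes of Pcca, Pccb and Mcee were −0.11, −0.03 and −0.07.

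The genes that supply adenosylcobalamin inside mitochondria went opposite ways. Mmaa, the chaperone of the mutase, was 16.6, 16.0 and 17.9 CPM in WT and 21.1, 25.7 and 23.7 CPM in Prox1-cKO. It rose in every Prox1-cKO library, by 0.48 on the log2 scale (standard error 0.13, adjusted p = 0.0218 from edgeR). On library totals the log2 fold change was 0.07 (adjusted p = 0.678). The call was also lost without WT replicate 1, WT replicate 2 or Prox1-cKO replicate 2 (adjusted p = 0.0680, 0.0733 and 0.0867).
Mmab, the adenosyltransferase, was 29.98, 24.6 and 25.0 CPM in WT and 21.3, 19.7 and 16.7 CPM in Prox1-cKO. It was lower in every Prox1-cKO library, at 72.5% of the WT mean, and fell by 0.46 on the log2 scale (standard error 0.14, adjusted p = 0.0371 from edgeR). On library totals alone it fell by 0.88 (adjusted p = 2.68e-03). The call was lost without WT replicate 1 (log2 fold change −0.36, adjusted p = 0.133), WT replicate 2 (0.0625) or any Prox1-cKO library (adjusted p = 0.0533, 0.104 and 0.102 without replicates 1, 2 and 3), when nearly all genes were kept (any with at least 1 count, 0.0539), and when gene length and GC content were corrected for (0.298). The gene (ENSMUSG00000029575) lies on chromosome 5 from 114431034 to 114444060.

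Of the genes of cobalamin uptake and cytosolic processing, the plasma carrier was the most abundant and fell. Tcn2 was 202, 199 and 215 CPM in WT and 157, 143 and 127 CPM in Prox1-cKO. The groups lay well apart, with means of 205 ± 8.46 and 142 ± 14.99 CPM (SD, n = 3 each), and the gene fell by 0.53 on the log2 scale (standard error 0.14, adjusted p = 0.0203 from edgeR), or by 0.94 with library totals alone. Left out in turn, WT replicates 1 and 2 gave adjusted p = 0.0548 and 0.0518 and Prox1-cKO replicates 2 and 3 gave 0.0829 and 0.0638, and the value was 0.133 with the correction for length and GC content. Transcobalamin is made by many cell types, endothelium among them. The summed level of the 20 endothelial markers was 852 to 1157 CPM in WT and 702 to 1106 CPM in Prox1-cKO, and that of the 16 macrophage markers was 1312 to 2680 and 769 to 1067 CPM. The part of these cells in the change of Tcn2 was not tested.
Cd320, the receptor, was the least expressed of the 10, with 60 to 83 reads per library. It was 3.26, 2.74 and 3.05 CPM in WT and 4.997, 3.33 and 4.91 CPM in Prox1-cKO. The genotypes did not overlap, though Prox1-cKO replicate 2 lay next to the WT livers, and a difference of 0.55 on the log2 scale (standard error 0.23) missed the threshold (adjusted p = 0.102 from edgeR).

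Inside the cell, both processing genes of the group rose. Lmbrd1, the lysosomal membrane protein, was 59.1, 56.6 and 67.8 CPM in WT and 89.2, 98.5 and 90.3 CPM in Prox1-cKO. It had the smallest adjusted p of the 10 (log2 fold change 0.60, standard error 0.12, adjusted p = 8.21e-03 from edgeR) and was called without any 1 library (adjusted p = 0.0400 at most).
Mmachc, which removes the upper ligand of cobalamin, was 14.2, 16.2 and 16.3 CPM in WT and 23.9, 22.8 and 19.9 CPM in Prox1-cKO. The groups did not overlap, and the gene rose by 0.51 on the log2 scale (standard error 0.13, adjusted p = 0.0195 from edgeR). Without WT replicate 1, Prox1-cKO replicate 1 or Prox1-cKO replicate 2 its adjusted p was 0.0712, 0.0641 and 0.0692. With library totals alone the log2 fold changes of Lmbrd1 and Mmachc were 0.19 and 0.10, and neither passed (adjusted p = 0.205 and 0.559).

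**Figure D2:**
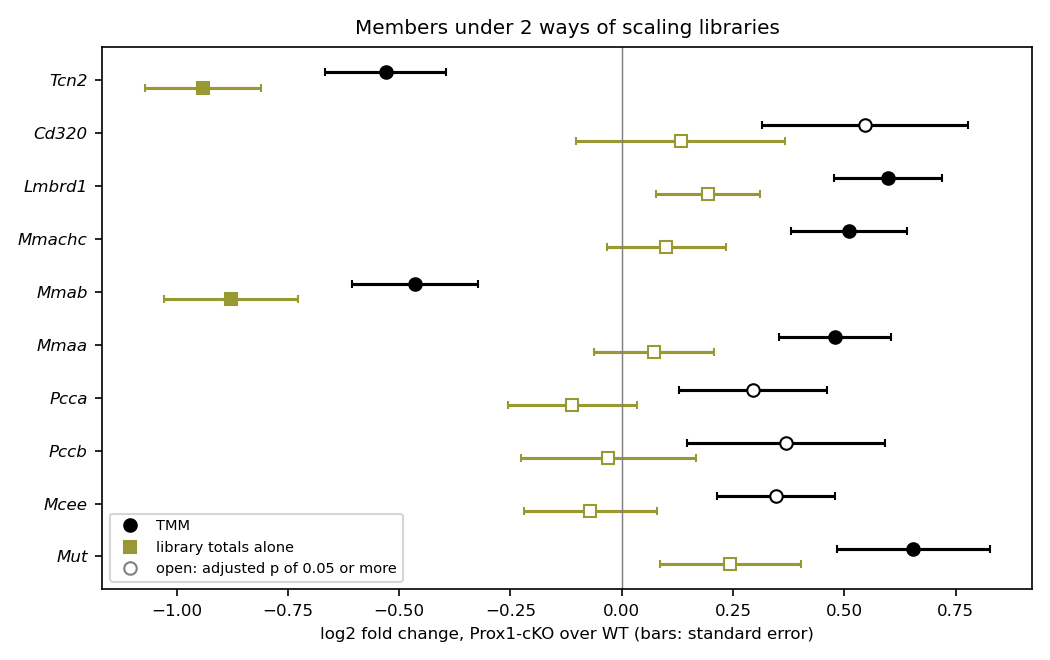
Log2 fold change of each gene in Prox1-cKO over WT (horizontal axis, bars show the standard error), with libraries scaled by TMM (black circles) or by library totals alone (olive squares). Filled symbols passed an adjusted p under 0.05. Tcn2 and Mmab lie below 0 under both scalings, at −0.53 and −0.46 with TMM, while the filled black circles above 0 all turn open with library totals.

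Per kilobase of exon, which allows levels of different genes to be set side by side, Tcn2 was highest in WT at 94.3 ± 3.88 CPM per kb, followed by Pccb (55.4), Mut (34.7), Mcee (26.3), Pcca (16.0), Lmbrd1 (10.3), Mmab (7.23), Mmachc (6.99), Mmaa (2.80) and Cd320 (1.05). In WT only the neighbours Mmab and Mmachc overlapped in this order. In Prox1-cKO livers Pccb came first at 71.6 ± 3.69 CPM per kb and Tcn2 next at 65.3 ± 6.88, and these 2 overlapped, as did Tcn2 and Mut (54.7 ± 10.6). Mmachc (9.97) stood above Mmab (5.24) with no overlap there. Pccb stood above Pcca in all 6 libraries on this scale, although their proteins form the enzyme together. The lengths count the exons of every annotated transcript, so a gene with long minor transcripts is placed too low.

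Ratios of reads within a library do not depend on how libraries are scaled, and 11 pairs were compared. In 6 pairs the genotypes did not overlap, and each of these gave p = 0.1 in a two-sided exact permutation test, the smallest value that 3 against 3 samples allow (adjusted p = 0.183 over the 11 pairs), so that none could pass. The reads of Mmab per read of Mut were 0.245, 0.191 and 0.175 in WT and 0.0860, 0.0956 and 0.09996 in Prox1-cKO. The adenosyltransferase thus stood lower against the enzyme it serves in every Prox1-cKO liver, by 1.11 on the log2 scale, a difference of −0.96 to −1.21 when any 1 library was left out. Against Mmaa it fell by 0.94.
Cd320 per read of Tcn2 was 0.0147 ± 0.00127 in WT and 0.0313 ± 0.00766 in Prox1-cKO and did not overlap between the genotypes. Mut against Pcca went from 1.59 ± 0.126 to 2.02 ± 0.142. The subunits of the carboxylase kept overlapping ratios, with Pcca at 0.559 ± 0.0845 reads per read of Pccb in WT and 0.514 ± 0.0652 in Prox1-cKO, as did Mmaa against Mut and Mcee against Mut (exact permutation p = 0.5, 0.8 and 0.3).

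**Figure D3:**
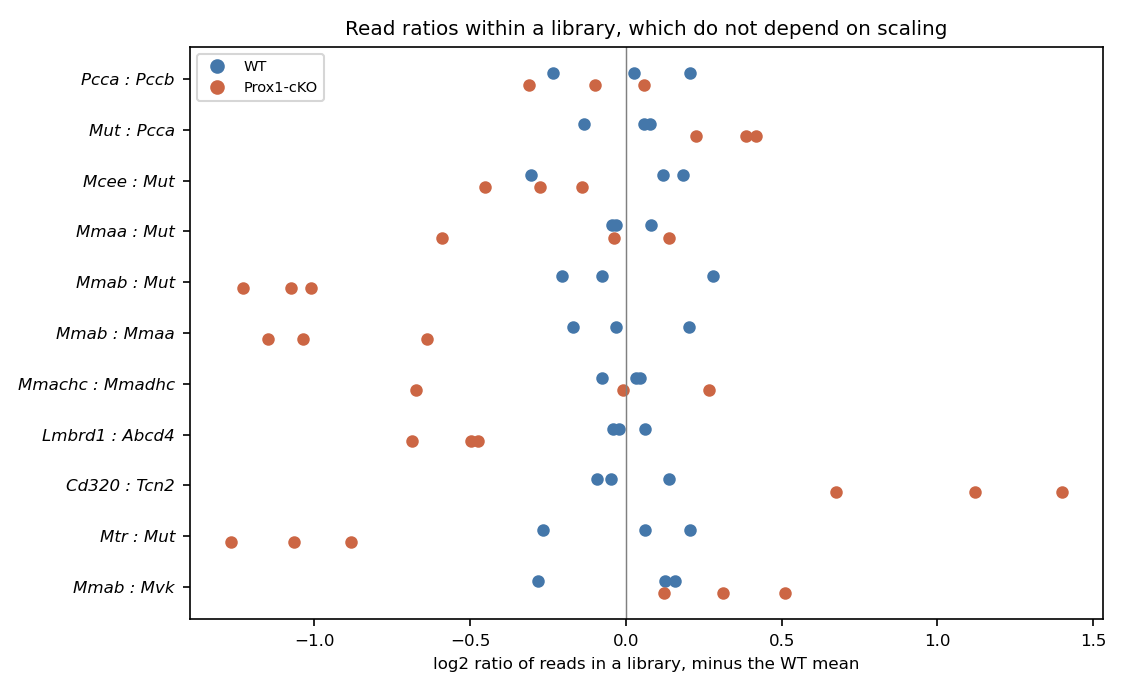
Log2 ratio of the reads of 2 genes in the same library, shown as the distance from the WT mean (horizontal axis), for 11 pairs, with WT in blue and Prox1-cKO in orange and 1 point per library. Mmab against Mut or Mmaa, Mtr against Mut and Lmbrd1 against Abcd4 are shifted to the left in every Prox1-cKO library, and Cd320 against Tcn2 and Mut against Pcca to the right.

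The partners of these genes in cobalamin handling moved in both directions. Among 13 other cobalamin genes, 11 passed the filter. The test called 2 of them higher and 4 lower (14.1% and 20.2% of all genes were), with a median log2 fold change of 0.04 over the 11. Without WT replicate 1 or 2, 1 was called higher (8.35% and 8.64% of all genes). Without Prox1-cKO replicate 1 or 2, 2 were called lower (14.2% and 13.0% of all genes). On library totals, 1 was called higher and 6 lower (4.88% and 40.8% of all genes were). With gene length and GC content corrected for, 4 were called higher and 3 lower (27.7% and 16.0% of all genes were). Abcd4, the transporter that works with Lmbrd1 at the lysosome, was 9.92, 9.39 and 10.6 CPM in WT and 23.4, 22.7 and 20.5 CPM in Prox1-cKO. It was the gene of this list that rose most, in every Prox1-cKO liver (log2 fold change 1.15, standard error 0.13, adjusted p = 7.28e-04 from edgeR), and the reads of Lmbrd1 per read of Abcd4 went from 6.13 ± 0.230 to 4.18 ± 0.329. Mmadhc, which directs cobalamin to either of its enzymes, rose by 0.68 on the log2 scale (adjusted p = 0.0210), with 38.2, 40.3 and 40.7 CPM in WT and 50.8, 58.6 and 81.1 CPM in Prox1-cKO. Leaving out WT replicate 1 or 2 ended that call (adjusted p = 0.0617 and 0.0560), as did library totals alone (log2 fold change 0.27, adjusted p = 0.250).
Mtr, methionine synthase, the cytosolic enzyme that uses cobalamin, was 17.4, 20.2 and 16.2 CPM in WT and 13.99, 13.4 and 12.4 CPM in Prox1-cKO. It fell by 0.44 on the log2 scale (standard error 0.14, adjusted p = 0.0417 from edgeR), and the call was lost without any library other than WT replicate 3 (adjusted p = 0.0815 to 0.146), with nearly all genes kept (0.0915) and with gene length and GC content corrected for (0.160). Against Mut, the mitochondrial cobalamin enzyme, its reads went from 0.137 ± 0.0222 to 0.0651 ± 0.00867. Mtrr, which reactivates methionine synthase, did not pass (log2 fold change 0.15, adjusted p = 0.528).
The genes of the receptor that takes up intrinsic factor with cobalamin in the gut were detected in WT liver and fell in Prox1-cKO livers. Cubn, cubilin, had 1353, 2137 and 1319 reads in the WT libraries and 6, 11 and 4 reads in the Prox1-cKO libraries, which is −7.44 on the log2 scale (standard error 0.30). Amn, its membrane anchor, had 20, 23 and 51 reads in WT and 0, 0 and 6 in Prox1-cKO, and its call ended when Prox1-cKO replicate 1 or 2 was left out (adjusted p = 0.0689 and 0.0759). Abcc1, which exports cobalamin from cells, fell by 1.23 on the log2 scale. Clybl, a mitochondrial lyase whose loss lowers vitamin B12 in humans, did not pass (0.33, adjusted p = 0.0806). Hcfc1, Thap11 and Zfp143, which together drive MMACHC in humans, did not pass either, with log2 fold changes of 0.04, 0.50 and −0.18 (adjusted p = 0.861, 0.0685 and 0.404), and were chosen for naming after their values were seen.

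Mmab and its head-to-head neighbour fell together. Mvk was 26.6, 16.5 and 16.4 CPM in WT and 14.3, 11.6 and 8.58 CPM in Prox1-cKO, and fell by 0.79 on the log2 scale (standard error 0.25, adjusted p = 0.0441 from edgeR). WT replicate 1 was the highest library for both genes, and without it neither was called (adjusted p = 0.141 for Mvk). The call of Mvk was also lost without WT replicate 2 or Prox1-cKO replicate 2 or 3 (adjusted p = 0.0552, 0.117 and 0.126), and with gene length and GC content corrected for (log2 fold change −0.50, adjusted p = 0.184). The reads of Mmab per read of Mvk overlapped between genotypes, at 1.13, 1.49 and 1.53 in WT and 1.49, 1.70 and 1.95 in Prox1-cKO (exact permutation p = 0.3).
Of 12 genes of sterol synthesis and uptake under SREBP2, among them Mvk, 10 fell and none rose (20.2% and 14.1% of all genes did). Their median log2 fold change was −1.21. Mvd, Hmgcs1, Fdps and Sqle, all enzymes of cholesterol synthesis, had log2 fold changes of −1.91, −1.73, −1.58 and −1.503. Without WT replicate 1 or Prox1-cKO replicate 1 or 3 Fdps was not called (adjusted p = 0.0843 to 0.0904), and its exons share 1124 bp with a coding gene model on the same strand that was counted at 0 reads, so its reads are uncertain. In humans MMAB and MVK share a promoter that answers to SREBP2, and the part of SREBP2 in the fall of Mmab was not tested.
Head-to-head starts were found for 4 of the 10 genes, counted as a coding gene on the opposite strand starting within 1000 bp, against 10.9% of 21951 coding genes. Mut starts 362 bp from Cenpq, a kinetochore gene with 3.48 CPM in WT and 2.09 in Prox1-cKO (log2 fold change −0.74, adjusted p = 0.0575), Mcee 339 bp from Mphosph10 (−0.17, adjusted p = 0.468) and Mmachc 103 bp from Ccdc163 (0.03, adjusted p = 0.938). None of these 3 neighbours passed the test as run for the 10 genes. Cenpq was called lower without WT replicate 3 (adjusted p = 0.0215) and among genes with at least 10 counts in every library (log2 fold change −0.79, adjusted p = 0.0432). Prdx1, which ends next to the end of Mmachc on the other strand, did not pass (log2 fold change −0.05, adjusted p = 0.828).

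Around the pathway, many of the genes that deliver propionyl-CoA rose. Of 13 genes that act on valine and isoleucine before propionyl-CoA 7 rose and none fell (14.1% and 20.2% of all genes did). Their median log2 fold change was 0.63. Hsd17b10 and Acat1 of isoleucine breakdown, Bcat2, the mitochondrial aminotransferase, and Aldh6a1, which makes propionyl-CoA from valine, had log2 fold changes of 2.76, 1.66, 1.01 and 0.82. On library totals, 3 rose and 1 fell (4.88% and 40.8% over all genes). The exons of Bcat2 share 622 bp with an antisense RNA that had 7487 reads over the 6 libraries, so its reads are uncertain. Those of Aldh6a1 share 1078 bp with Bbof1 on the opposite strand. Bbof1 had 87 reads over the 6 libraries, against 5470 to 8976 per library for Aldh6a1, and only reads in the shared stretch are uncertain.
Of 11 genes of other sources 7 rose and 1 fell (14.1% and 20.2% of all genes did), with a median of 1.03. Those that rose included Cth, which makes 2-oxobutyrate from cystathionine (1.75), and the peroxisomal genes Acaa1a and Hsd17b4 (1.44 and 1.31 on the log2 scale), of which Acaa1a shares 290 bp of exon with Myd88 on the opposite strand. Acox3, which was named after its value was seen, fell by 1.30. On library totals, 3 of these genes rose and 1 fell (4.88% and 40.8% over all genes).
Downstream, of 12 genes of succinyl-CoA use and related acyl-CoA clearance 5 rose and 1 fell (14.1% and 20.2% over all genes), with a median of 0.52. With library totals alone 1 rose and 3 fell (4.88% and 40.8% over all genes). Without WT replicate 1, WT replicate 2, Prox1-cKO replicate 2 or Prox1-cKO replicate 3, 2 of the 12 rose (7.79% to 10.3% over all genes). Sucla2 and Suclg1, subunits of the ligases that turn succinyl-CoA into succinate, rose by 0.74 and 0.55, while Suclg2 (0.15, adjusted p = 0.457) did not pass. Crat, which makes propionylcarnitine among other esters, rose by 1.77 (standard error 0.41), from 43.2 ± 12.7 to 147 ± 83.7 CPM (SD, n = 3 each). The exons of Crat share 411 bp with an antisense RNA and 59 bp with Dolpp1 on the opposite strand. Mlycd, malonyl-CoA decarboxylase, rose by 0.89. Acss3, a synthetase of propionyl-CoA, rose from 17.9 ± 8.42 to 35.7 ± 4.21 CPM (SD, n = 3 each), and its exons share 2436 bp with Ppfia2 on the opposite strand, which had 43 reads over the 6 libraries. Acss1, an acetyl-CoA synthetase, fell by 2.40. Acsf3, which activates malonate and methylmalonate, was at 0.49 (adjusted p = 0.0966) and passed without WT replicate 3 (0.0459) and with gene length and GC content corrected for (0.0109). The calls of Suclg1 and Mlycd were lost without WT replicate 1 or 2 or Prox1-cKO replicate 2 or 3 (adjusted p = 0.0513 to 0.0729), and that of Acss3 without any library but WT replicate 3 (0.0666 to 0.0982).

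The genes called among the biotin enzymes related to propionyl-CoA carboxylase lay in both directions. Of 8 genes of biotin use 2 rose and 1 fell (14.1% and 20.2% of all genes did). The 8 had a median log2 fold change of −0.11. Without WT replicate 3, 2 of them fell (22.6% of all genes did). Without Prox1-cKO replicate 3, 2 fell as well (2316 of 15448 genes tested did). Pc, pyruvate carboxylase, rose by 1.12 and Mccc2, a subunit of methylcrotonyl-CoA carboxylase, by 0.76, while its partner Mccc1 was at −0.23 (adjusted p = 0.317). Acaca, the cytosolic acetyl-CoA carboxylase of fatty acid synthesis, fell by 1.67. Hlcs, which attaches biotin to all of these enzymes, was 15.7 ± 2.92 CPM in WT and 15.9 ± 0.126 CPM in Prox1-cKO (log2 fold change 0.02, adjusted p = 0.942). In the tricarboxylic acid cycle, 3 of 14 genes rose and none fell (14.1% and 20.2% of all genes did), with a median of 0.30. Fh1, fumarase, rose by 0.94 and Sdhd, a subunit of succinate dehydrogenase, by 0.50. The call of Sdhd ended without any library but WT replicate 3 (adjusted p = 0.0596 to 0.0994). With gene length and GC content corrected for, 10 of the 14 rose (against 27.7% of all genes), and with library totals alone 1 did (against 4.88%). Without WT replicate 3, 5 rose (against 17.0%). Without WT replicate 1 or 2 or Prox1-cKO replicate 1 or 3, 1 rose (against 8.35% to 10.3%). The median of the 10 genes of the propionate and cobalamin route, 0.42, lay between that of this cycle and that of the valine and isoleucine steps, and no test of a difference between the lists was made.

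**Figure D4:**
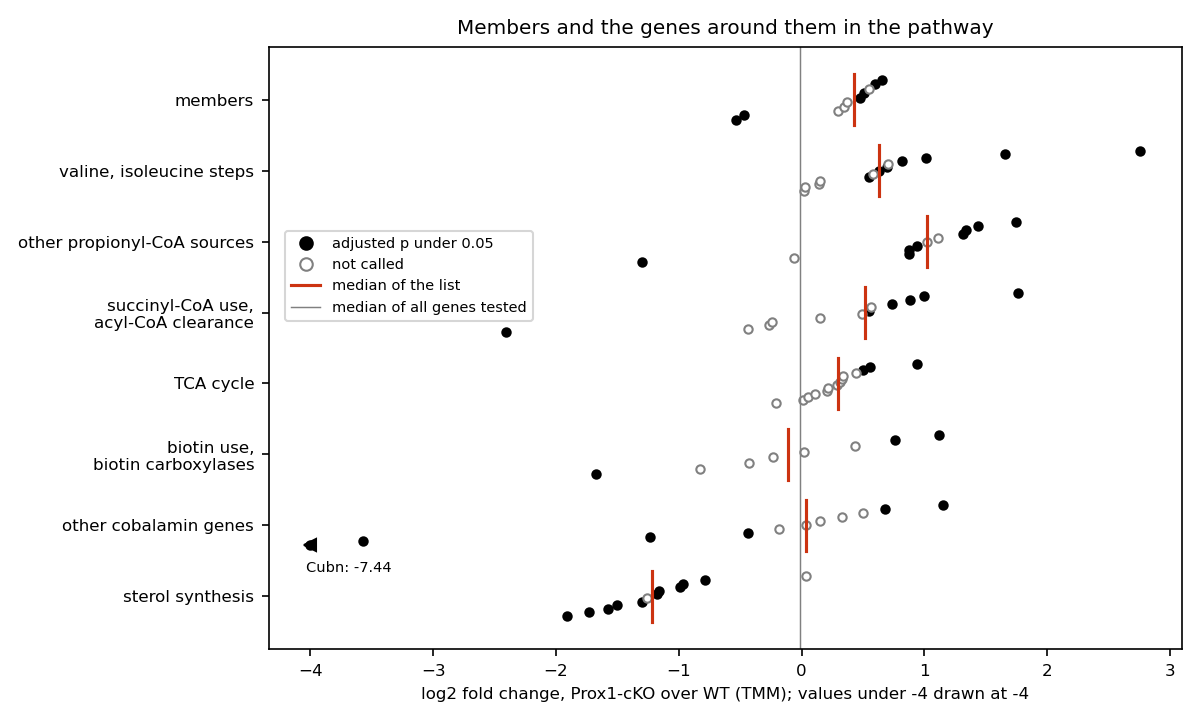
Log2 fold change in Prox1-cKO relative to WT (horizontal axis, TMM scaling) of the 10 genes (top row, members) and of the lists around them, 1 point per gene. Filled points passed an adjusted p under 0.05, red lines are the medians of the lists (0.42 for the 10 genes, −1.21 for sterol synthesis) and the grey line is the median of all genes tested (−0.02). Cubn, at −7.44, is drawn at the left edge.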

How the data were processed

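Poly(A)-selected RNA of 6 livers, 3 WT and 3 Prox1-cKO, was sequenced on an Illumina instrument from randomly primed cDNA. The authors deposited read counts per gene. Their processing notes name HISAT2 2.1.0, HTSeq, DESeq and the human build GRCh38, but the identifiers are murine, and GENCODE M21 holds 29605 of the 29667. A second deposited table, named FPKM, holds CPM. Times the library totals, 100% of its values gave whole reads within 0.01, and these gave the same numbers of calls, 2087 higher and 2999 lower. The sources used here give no annotation release, strand or filter. Positions and exon lengths are from GENCODE M21 (GRCm38) and promoters from RefSeq.

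The counts were tested with edgeR 4.0.16 under R 4.3.3 (filterByExpr, TMM, quasi-likelihood test on genotype alone, Benjamini-Hochberg over 14843 genes, called under 0.05; common dispersion 0.0465). The standard errors of log2 fold changes are not an output of edgeR. Each was computed as the absolute log2 fold change divided by the square root of the quasi-likelihood F. Symbols turned into dates (23) were resolved by identifier, and Pc was matched as Pcx. Results were recomputed with RLE and upper quartile factors, with library totals alone, with all genes of at least 1 count, with genes of at least 10 counts per library, with replicate number as a block, leaving out each library, with DESeq2 1.42.0, with limma-trend 3.58.1 on log2 CPM (1 or 0.1 added), with offsets by gene length and GC content, and with thresholds of adjusted p under 0.01 or 2-fold and more. The CPM table was added as an input after the data were seen. The members and lists were chosen with earlier results of these data known. Every member is named, with up to 4 called genes of each pathway list by size of change, and partner genes whatever their result, and the cell marker lists are given by counts. Some genes that this rule takes are not reported here. Figures were drawn with matplotlib 3.10.9 under Python 3.11.15.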

Additional observations from a re-analysis of the deposited data

How the results depend on the processing

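The number of the 10 genes called higher, 4 with all libraries and TMM, was 0 with library totals alone, 7 with the offset for gene length and GC, 0 at 2-fold or more, 1 at an adjusted p under 0.01, and 1 to 6 with a library left out. The number called lower, 2, was 1 with no filter beyond 1 count, 0 with the offset, 0 at 2-fold or more, 0 at an adjusted p under 0.01, and 0 to 2 with a library left out. The median log2 fold change of the 10 was 0.021 with library totals alone, 0.60 with the offset and 0.40 to 0.55 with a library left out. The offset shifted the log2 fold changes of all genes by a median of 0.20. Under RLE or upper quartile factors, with DESeq2 and with limma-trend, the counts were 4 and 2.

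With library totals alone Pcca (−0.11), Pccb (−0.030), Mcee (−0.071), Mtrr (−0.26), Clybl (−0.082), Suclg2 (−0.26), Hlcs (−0.39) and Ccdc163 (−0.39) changed sign. None of these was called in either setting. Hlcs also changed sign with upper quartile factors (−0.036), at least 10 counts (−0.027) and a library left out (−0.11 to 0.15), and Ccdc163 with the same factors (−0.029), at least 10 counts (−0.018) and a library left out (−0.10 to 0.21). With the offset Mphosph10 (0.000348) and Prdx1 (0.11) changed sign, and Prdx1 did so with a library left out (−0.089 to 0.019). With library totals alone Mccc1, Prdx1, Mphosph10 and Cenpq were called lower (adjusted p = 0.0136, 0.0404, 0.0270 and 0.0114 from edgeR).

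Nothing in the labels says that replicate numbers pair the mice. The deviations of same-numbered libraries from their group means correlated at 0.148, 0.056 and 0.155, and not every library correlated best with its own number. With the replicate block, the counts of the 10 genes called were 4 higher and 2 lower, with a median of 0.45, no call of the 10 changed, and over all genes 2029 were called higher and 2988 lower. Of the other genes named, Acsf3 passed (adjusted p = 0.0373 from edgeR) and Mtr did not (0.0545). Cd320, with 60 to 83 reads per library, had the largest standard error of the 10 (0.230). Pccb, with 2585 to 4114 reads per library, had 0.223.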
